A study of Mus musculus with 9 samples.

Results

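The Nedd4-type ubiquitin ligases described here are the 7 genes Nedd4, Nedd4l, Itch, Wwp1, Wwp2, Smurf1 and Smurf2, together with their 2 membrane adaptors Ndfip1 and Ndfip2. These 9 genes were taken by name from the 25494 genes of the deposited RNASeq table, and all 9 were found. The group was chosen by the TTP vs GFP difference of Nedd4, the highest of all genes ranked, so the TTP vs GFP values of these genes describe the choice and support nothing. The other comparisons each share the TTP or the GFP level of Nedd4 with this choice, so its ranks there are descriptions too.

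RNASeq of rRNA-depleted total RNA was carried out in bone marrow-derived macrophages (BMDMs) of TTP-deficient mice, which lack the functional product of Zfp36. TTP (tristetraprolin) is an RNA-binding protein that recognizes AU-rich elements in 3′UTRs and recruits the mRNA decay machinery. The cells had been immortalized with hcmyc and hRasG12V, sorted for the macrophage surface proteins CD11b and F4/80, and transduced with a doxycycline-inducible vector encoding either GFP alone, wild-type GFP-TTP or the mutant GFP-TTP-AA. In GFP-TTP-AA, alanines replace the serines through which the kinase MK2 phosphorylates TTP. All 3 groups (named GFP, TTP and TTP-AA below, as labelled) received 1 µg/ml doxycycline for 6 h and 1 µg/ml lipopolysaccharide (LPS) for 1 h, and each group had 3 libraries, 9 in all. Every cell in the comparison therefore carried the 2 oncogenes, lacked endogenous TTP protein and was LPS-stimulated. No untreated cells were compared. Each transgene was carried by a transduced cell line of its own, so that a property of a line and an effect of its transgene cannot be told apart.

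The ligases of this family share a lipid-binding C2 domain, several WW domains that bind PPxY motifs in substrates and adaptors, and a catalytic HECT domain that passes ubiquitin from an E2 enzyme to the substrate through a thioester. They are known for sorting membrane receptors and channels into endosomes and for limiting TGF-β, Notch and T cell receptor signaling. Ndfip1 and Ndfip2 are small transmembrane proteins of the Golgi and endosomes whose PPxY motifs recruit and activate these ligases. In lymphocytes and myeloid cells the family is best known through Itch, whose loss causes systemic inflammation in mice.

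The deposited values are not measured counts. They are the means that the authors' model fitted for each library, each the product of 3 parts: a factor of the library, a term for its replicate number and a term for its condition. A fitted table carries no scatter between replicates, so no test was possible and no p-value is given. All levels below are fitted counts divided by a library scaling factor ("scaled fitted count"), and all differences are log2 differences between groups. Fitted differences were small at low levels, with a median size of 0.027 below a mean of 1, against 0.15 at a mean of 10 or more. A fitted difference may therefore depart from the ratio of measured group means. How far the model drew differences towards 0 was not tested. Each difference is given with its counting error, which follows from the number of fitted reads alone and is a lower bound on the true error. The only spread that the table holds is the replicate-number term, which all 3 groups share, and its SD over the 3 replicate numbers is given as the spread of the levels. This term cancels from every difference between groups, so it is not an error of the difference, and the order of the groups is the same in every replicate by construction. Whether fitted libraries of different groups overlap depends only on the size of the difference against the range of this term. Nothing is therefore read from such overlap or its absence in any gene. Libraries labelled as replicates are not stated to come from separate cultures. A gene is said to pass the fold limit when its levels differ at least 2-fold, among the 13027 genes with a mean scaled fitted count of at least 10.

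The library sums ran from 21482954 fitted counts in TTP replicate 1 to 102613526 in TTP-AA replicate 3. The defining markers of macrophages were present at high levels. All 8 of 8 listed macrophage markers passed the mean of 10, with Lyz2 at a mean of 586287, Csf1r at 21229 and Adgre1 (F4/80) at 18095. Their summed level was 592729 to 815693 in GFP, 498308 to 676780 in TTP and 675194 to 924243 in TTP-AA. Lyz2 made up most of this sum, and 2 markers passed a 2-fold difference between groups. Of the 13027 genes, 1.37% passed it for TTP vs GFP and 3.26% between the TTP forms. Fcgr1, an Fc receptor, lay at -1.21 in TTP against GFP. Adgre1 lay at -0.76 in TTP and 0.68 in TTP-AA against GFP, and at 1.44 between the TTP forms. The markers of fibroblasts, T cells, B cells, mast cells and epithelium had summed levels between 0.25 and 11.6, with no gene at the mean of 10. Of 4 neutrophil markers only S100a8 passed it, with a summed level of 113 to 181 in GFP, 114 to 183 in TTP and 192 to 307 in TTP-AA. Of 3 endothelial markers only Kdr passed, with sums of 27.4 to 34.5, 25.4 to 32.4 and 40.4 to 52.3 in the same order. The part of these differences in the values of the ligases was not tested. In these bulk samples, fewer cells of a type and less RNA per cell cannot be told apart.

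Zfp36 had fitted counts in all groups. Reads of the disrupted gene and of the transgene can both fall in its row, and their origin was not examined. Its scaled fitted counts were 1744, 1423 and 890 in GFP, 1787, 1447 and 913 in TTP, and 2828, 2298 and 1443 in TTP-AA. The level in TTP was higher than in GFP by 0.03 and the level in TTP-AA by 0.69. Zfp36 therefore does not tell the libraries labelled TTP from those labelled GFP, and the directions reported here rest on the labels.

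TTP is known to bind RNA best at TTATTTATT, written as DNA, and also at its core TATTTAT, so the 3′UTRs of the members were searched for both, on the sense strand only, together with the pentamer ATTTA that lies inside each. The longest annotated 3′UTR of each gene was used (GENCODE M21 on GRCm38, the assembly of the authors). TATTTAT occurred in 5 of the 9 members, namely Nedd4, Nedd4l, Wwp1, Smurf2 and Ndfip2, against 29.6% of 15721 protein-coding genes whose 3′UTR had at least 100 bases (median 1146). The 3′UTRs of the members were longer, from 1029 to 4942 bases with a median of 2599, and among the 7780 genes within this range of lengths 41.5% held the motif. The sites of 4 members are shown, since this core is the sequence that the protein compared in these cells is known to bind. Each line gives 29 bases of the sense strand with the motif in capitals.
Nedd4: gttttcgatttTATTTATaccgctcgagt
Wwp1: attttctacttTATTTATtgttcccttta
Smurf2 (first site): cctacagctctTATTTATtccctggccaa
Smurf2 (second site): tttaatgtgaaTATTTATctgtccccacg
Smurf2 (last site): catttccattgTATTTATtacagaatgtt
Ndfip2: tttagatcttaTATTTATttacatttaaa

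The Nedd4 site lies at chr9:72749633-72749661 on the plus strand (GRCm38), at base 2416 of a 3′UTR of 2624 bases, that is, near its end. The Wwp1 site lies at chr4:19611526-19611554 on the minus strand, at base 171 of 3411. The 3 sites of Smurf2 lie on the minus strand at chr11:106822619-106822647, chr11:106820773-106820801 and chr11:106820236-106820264, at bases 29, 1875 and 2412 of a 3′UTR of 2599 bases. The Ndfip2 site lies at chr14:105308694-105308722 on the plus strand, at base 822 of 1415. Nedd4l held 1 site at base 246 of a 3′UTR of 4942 bases, which is not shown. The longer TTATTTATT occurred once each in Wwp1 and Smurf2. It occurred in 8.07% of the genes searched and in 11.0% of those within the members' range of 3′UTR lengths. ATTTA occurred 5 times in Nedd4, 8 times in Nedd4l, 7 times in Itch, 9 times in Wwp1, 3 times in Smurf1 and 10 times each in Smurf2 and Ndfip2, but not in Wwp2 or Ndfip1. ATTTA was found in 70.1% of the genes searched and in 89.4% of those within the members' range of 3′UTR lengths. These matches describe letters in an annotated 3′UTR. Whether TTP bound there was not analysed here, and the 3′UTR used by these cells may be shorter than the longest one annotated.

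Nedd4 was the member with the largest difference in every comparison. Nedd4, the founding ligase of the family, is encoded at chr9:72662346-72749852 on the plus strand (ENSMUSG00000032216), and its exons overlap those of no other annotated gene. Its scaled fitted counts were 697, 590 and 582 in GFP replicates 1 to 3, 8993, 7561 and 7524 in TTP, and 2588, 2183 and 2161 in TTP-AA. The fitted values of the 3 groups lay apart, which only restates that each group difference exceeded the range of the shared replicate-number term (0.26).

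In TTP the level of Nedd4 was 12.9-fold that in GFP, a log2 difference of 3.69 ± 0.035 (counting error, 3 libraries per group). This was the highest value among the 11120 genes with a mean of at least 50, which is the pattern that chose the group. In TTP-AA the level was 3.71-fold that in GFP, a difference of 1.89 ± 0.037, the 18th highest of 11120 genes. Between the TTP forms, Nedd4 was 3.47-fold lower in TTP-AA than in TTP (log2 difference -1.80 ± 0.018), the 14th lowest of 11120. The level in TTP-AA thus lay between the others and on the log2 scale about midway. Each of these comparisons shares the GFP or the TTP level of Nedd4 with the comparison that chose the group. The choice favours high ranks there, so nothing is read from the ranks or from the place of TTP-AA between the others. The SD of the replicate-number term of Nedd4 was 0.15.

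The fitted mean of Nedd4 lay further from the authors' mean than those of the other members. The mean of its fitted counts over the 9 libraries was 3653, while the authors' mean of the measured normalized counts was 4008, so that the fitted mean was lower by 8.85% of the authors' value. For the other 8 members the fitted mean differed from the authors' mean by -0.057% to 0.57%. Over 13205 genes with an authors' mean the median of this deviation was 0.41%. A deviation of means does not measure how closely single libraries follow the fit. The measured Nedd4 counts of the single libraries were not analysed here, so which libraries lay above the fit cannot be read from the table.

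**Figure D1:**
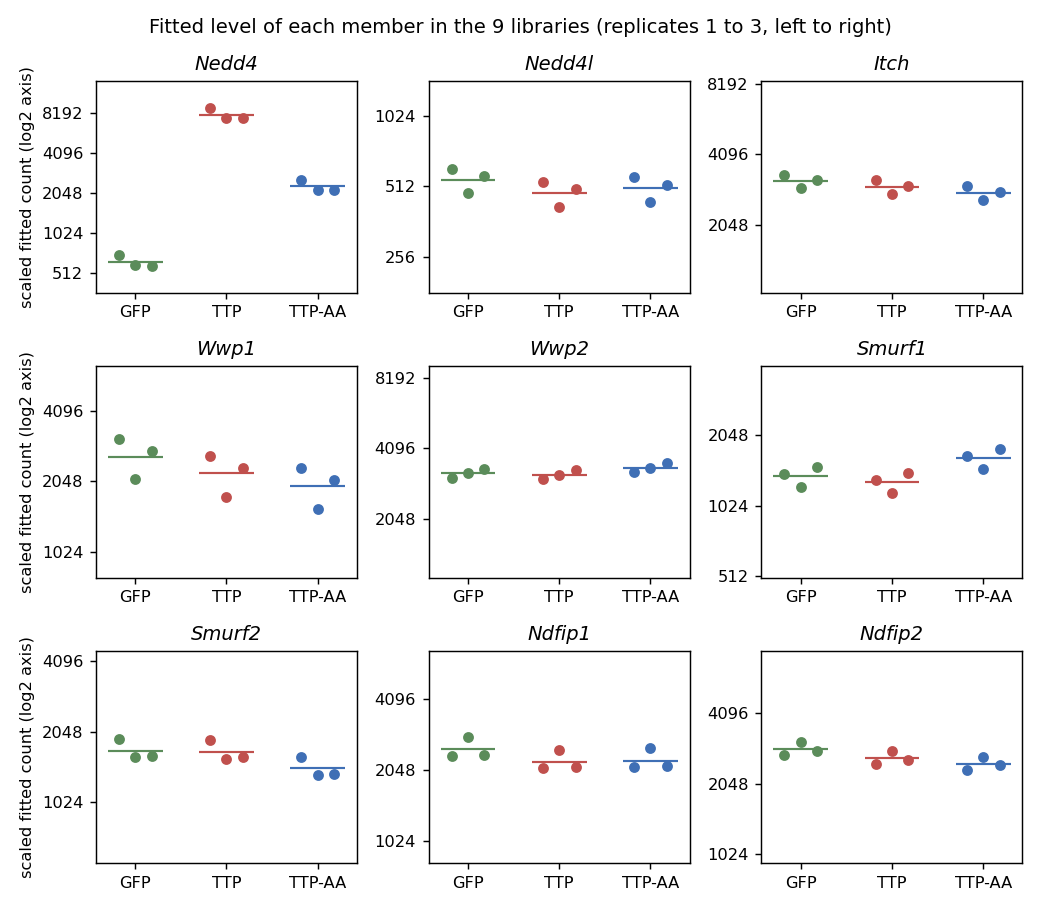
Scaled fitted count (log2 axis) of each of the 9 members in the 3 GFP, 3 TTP and 3 TTP-AA libraries. Points are libraries in the order of their replicate number and lines are geometric means of a group. The axis spans 3 log2 units in every panel except that of Nedd4, where the groups lie apart at 582 to 697, 7524 to 8993 and 2161 to 2588. The pattern of the 3 points repeats in each group because the fitted values share 1 replicate-number term.

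Among the remaining ligases no difference reached 2-fold. Of the 9 members, 1 passed the fold limit in each comparison, and it was Nedd4 each time. In the background, 1.37% of 13027 genes passed it for TTP vs GFP (0.292% higher and 1.07% lower in TTP), 1.47% in TTP-AA against GFP (1.15% higher and 0.315% lower in TTP-AA) and 3.26% between the TTP forms (2.66% higher and 0.606% lower in TTP-AA). Since Nedd4 chose the group, these shares are background and nothing is read from the count of 1.

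Wwp1, a ligase with substrates among the Smad and Klf proteins, had the largest difference after Nedd4 (chr4:19608303-19708993, minus strand). Its scaled fitted counts were 3095, 2084 and 2750 in GFP, 2630, 1758 and 2341 in TTP, and 2323, 1558 and 2063 in TTP-AA. The groups overlapped across replicate numbers, with the replicate-number term setting the width of each group. The TTP-AA level was 0.749 of that of GFP, a difference of -0.42 ± 0.022 on the log2 scale, and the TTP level was lower by 0.24 than that of GFP. Wwp1 also had the widest replicate-number term of all members, with an SD of 0.30. An exon of Wwp1 overlaps Gm12353 on the other strand, and since the use of strand in counting was not stated, reads of both genes cannot be told apart.

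Smurf1 and Smurf2, the related ligases named for their action on Smad proteins and TGF-β receptors, differed in opposite directions in TTP-AA. Smurf1 (chr5:144876495-144965847, minus strand) had scaled fitted counts of 1398, 1234 and 1495 in GFP, 1321, 1158 and 1415 in TTP, and 1666, 1465 and 1782 in TTP-AA. The TTP-AA level exceeded the TTP level by 0.34 ± 0.030 and the GFP level by 0.25 ± 0.028, and the TTP and GFP levels differed by -0.08. Smurf2 (chr11:106820066-106920715, minus strand) had 1894, 1592 and 1607 in GFP, 1879, 1568 and 1597 in TTP, and 1597, 1337 and 1354 in TTP-AA. It was lower in TTP-AA by 0.25 than in GFP and by 0.23 than in TTP, while TTP and GFP differed by -0.01, within counting error. With the chromosome median removed, the Smurf2 differences of TTP-AA from GFP and from TTP were -0.14 and -0.10. The replicate-number SD was 0.14 for either gene. The TTP-AA libraries overlapped those of GFP for both genes and those of TTP for Smurf2, while every Smurf1 value in TTP-AA lay above those in TTP. This only restates that the Smurf1 difference exceeded the range of its shared replicate-number term (0.28), and nothing is read from it. Smurf2 holds 3 TATTTAT motifs, the most of any member, and Smurf1 holds none. In TTP-AA against GFP, the other holders Nedd4, Nedd4l, Wwp1 and Ndfip2 lay at 1.89, -0.12, -0.42 and -0.21. The other members without the motif, Itch, Wwp2 and Ndfip1, lay at -0.17, 0.08 and -0.16. A relation between the motif and these differences was not tested.

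Itch (chr2:155133509-155226855, plus strand), which controls T helper cell differentiation through JunB, had scaled fitted counts of 2937 to 3354 in GFP, 2761 to 3177 in TTP and 2604 to 2986 in TTP-AA. It was lower than in GFP by 0.08 in TTP and by 0.17 in TTP-AA. Nedd4l (chr18:64887705-65217828, plus strand), the closest relative of Nedd4 and a regulator of the epithelial sodium channel, ranged from 478 to 605 in GFP, 418 to 533 in TTP and 440 to 559 in TTP-AA. The difference of Nedd4l was -0.19 ± 0.054 for TTP vs GFP, opposite in sign to that of Nedd4, and its replicate-number SD was 0.18. The annotated antisense gene A330084C13Rik overlaps a Nedd4l exon. Wwp2 (chr8:107436365-107558595, plus strand), a ligase that hosts the microRNA gene Mir140, was the steadiest member, with 3068 to 3331 in GFP, 3034 to 3299 in TTP and 3249 to 3527 in TTP-AA. Its differences were -0.02 and 0.08 from GFP in TTP and TTP-AA and 0.10 between the TTP forms, with a replicate-number SD of 0.060.

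The adaptors were lower in both TTP forms than in GFP by small amounts. Ndfip1 (chr18:38410396-38465303, plus strand) had 2356 to 2839 in GFP, 2084 to 2493 in TTP and 2107 to 2530 in TTP-AA. Its differences from GFP were -0.18 ± 0.025 in TTP and -0.16 ± 0.022 in TTP-AA, and its replicate-number SD was 0.15. Ndfip2 (chr14:105258573-105309298, plus strand) had 2710 to 3098, 2479 to 2814 and 2347 to 2673 in the same order, with differences from GFP of -0.13 ± 0.023 and -0.21 ± 0.021 and an SD of 0.095. The libraries of the groups overlapped for both genes, except that every Ndfip2 value in TTP-AA lay below those in GFP. This only restates that the Ndfip2 difference exceeded the range of the shared replicate-number term (0.19), and nothing is read from it. Ndfip2 and Smurf2 each share exon positions with another annotated gene, the pseudogene Gm16259 on the other strand and the microRNA gene Gm27322. Between the TTP forms Ndfip1 differed by 0.02 and Ndfip2 by -0.08.

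Counted by direction, 8 of the 9 members had a lower level in TTP than GFP, as did 50.3% of the 13027 genes. For TTP-AA vs GFP 6 of 9 were lower (background 49.8%), and for TTP-AA vs TTP 5 of 9 (background 50.3%). The member medians were -0.08, -0.16 and -0.08, and the all-gene medians lay within 0.01 of 0. The 3 comparisons share libraries and come from 1 fit, so their counts are not independent of each other.

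**Figure D2:**
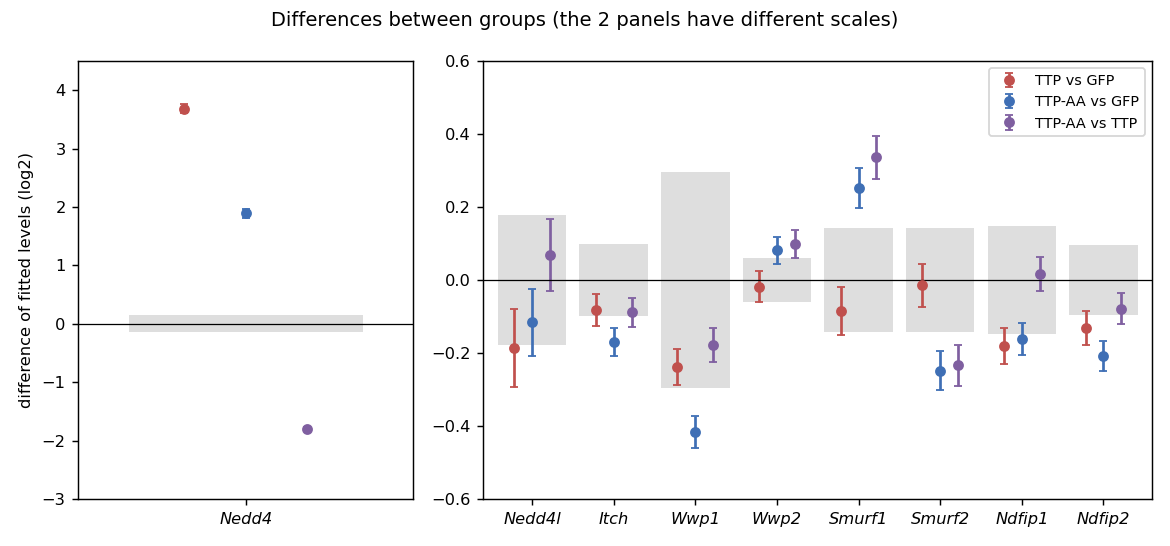
Log2 difference of fitted levels for TTP vs GFP (red), TTP-AA vs GFP (blue) and TTP-AA vs TTP (purple), with Nedd4 at left and the other 8 members at right on a narrower scale. Error bars are 95% intervals of counting error alone, and gray bands are ± 1 SD of the replicate-number term. This term cancels from every difference, so the bands show the spread of the levels and are not an error of the differences. Nedd4 lies at 3.69, 1.89 and -1.80, and the other members between -0.42 and 0.34.

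To compare the genes with each other, levels were divided by the length of the transcript with the longest coding sequence, which for Nedd4l (3034 bases) and Smurf2 (3125 bases) is not the longest transcript. By this length Nedd4 had, in GFP, 113 scaled fitted counts per kb, Nedd4l 180 and Smurf1 253. Ndfip1 was highest with 1401, followed by Ndfip2 with 1136 and Wwp2 with 741. In TTP, Nedd4 was the highest of the 9 at 1454 per kb, above Ndfip1 at 1236. In TTP-AA it was in 6th place at 419, between Smurf2 at 456 and Wwp1 at 304.

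The order depends on the length used. By the longest protein-coding transcript in total bases, a length added after seeing the data, Nedd4l (7787 bases) had 70.2 per kb in GFP and took the lowest place in all groups, with Nedd4 8th in GFP, 1st in TTP and 5th in TTP-AA. With the union of all annotated exons, Nedd4 ranked 8th, 1st and 8th. Whether Nedd4 or Nedd4l was the lowest in GFP therefore cannot be said. Nedd4 made up 3.99% of the summed per-kb level of the 7 ligases in GFP, 36.1% in TTP and 14.2% in TTP-AA. By the longest transcript these shares were 4.52%, 39.2% and 15.7%, and with the union of exons 3.39%, 32.6% and 12.3%. The summed per-kb level of the 7 ligases was 2827 in GFP, 4023 in TTP and 2957 in TTP-AA. Without Nedd4 it was 2714, 2569 and 2538, so that the higher sum in TTP was that of Nedd4. The larger share, sum and place of Nedd4 in TTP restate the difference that chose the group, so nothing is read from them.

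**Figure D3:**
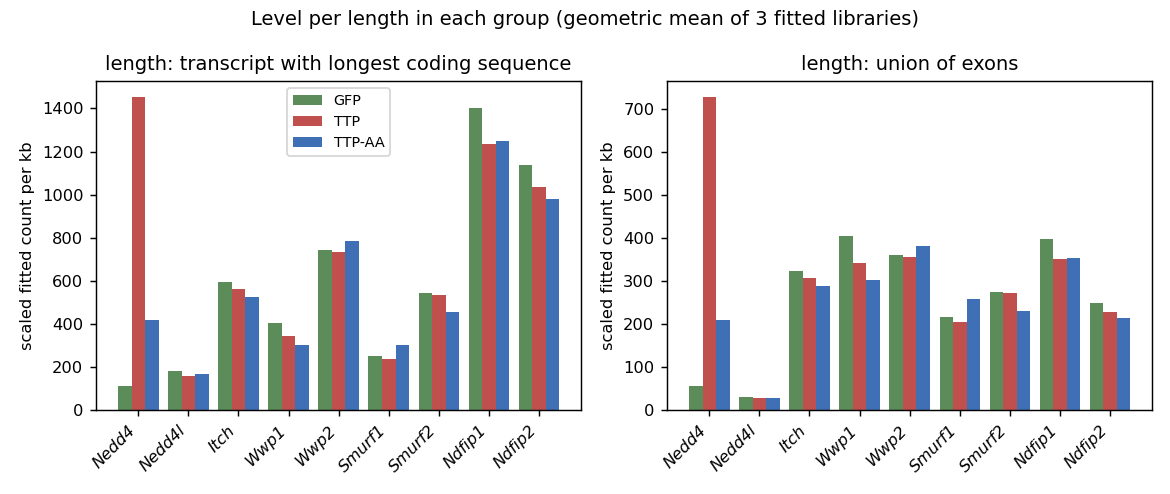
Scaled fitted count per kb of the 9 members in GFP (green), TTP (red) and TTP-AA (blue), as geometric means of 3 libraries. Length is the transcript with the longest coding sequence at left and the union of exons at right, on different scales. Nedd4 goes from 113 in GFP to 1454 in TTP at left, and it is the only member whose place in the order shifts from the low end to the top. This shift restates the difference that chose the group.

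The genes around Nedd4 are given as a description, since Nedd4 was chosen as the gene with the highest TTP vs GFP value. Within 500 kb on either side, 32 annotated genes were in the table and 13 had a mean of at least 10. For TTP vs GFP these 13 lay between -0.80 (Rab27a) and 0.42 (Prtg), with a median of 0.10, and for TTP-AA vs GFP between -0.42 (Prtg) and 0.59 (Rab27a), with a median of 0.12. Between the TTP forms they lay between -0.83 (Prtg) and 1.39 (Rab27a), with a median of -0.09. Rab27a was past the fold limit there, as were 3.26% of the 13027 genes. Rfx7, the nearest gene with a mean of at least 10 upstream, 39.4 kb from Nedd4, differed by 0.04 and 0.16. Prtg, the nearest downstream at 57.0 kb, had a mean of only 27.0 and was higher than in GFP by 0.42 in TTP and lower by 0.42 in TTP-AA. Inside the introns of Nedd4 lie 4 annotated same-strand transcripts of unknown coding status, of which 3 were in the table with means of 1.32, 1.68 and 3.07. Their TTP vs GFP values were 0.14, 0.22 and 0.18. The median size of fitted differences was 0.027 below a mean of 1 and 0.15 at 10 or more, and none was taken for the means between. How far the model drew differences towards 0 at such low means was not tested, so nothing is read from these values. The 734 genes of chromosome 9 had medians of 0.05 and 0.02 for these comparisons.

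**Figure D4:**
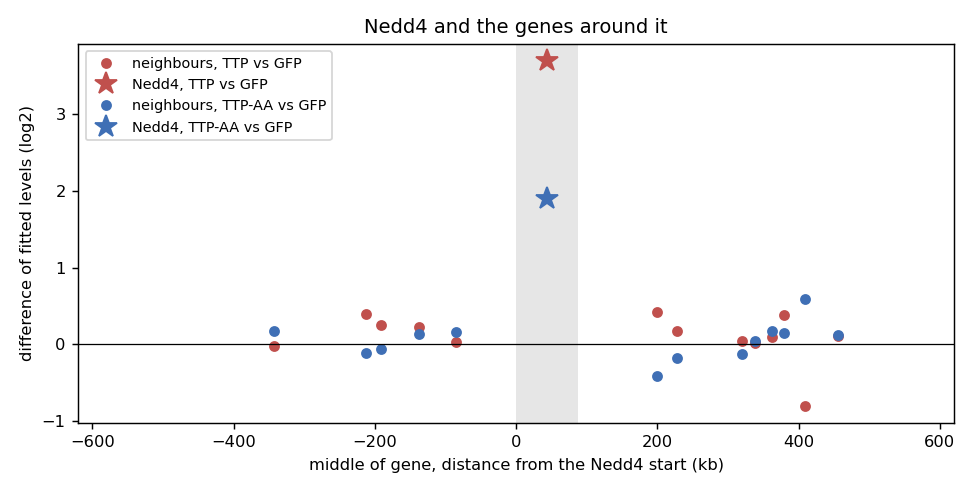
Log2 difference of fitted levels against distance of the middle of each gene from the Nedd4 start, in kb, for Nedd4 (stars) and the 13 neighbours with a mean of at least 10 (circles), for TTP vs GFP (red) and TTP-AA vs GFP (blue). The gray band is the Nedd4 gene. The neighbours lie between -0.80 and 0.59, and the stars at 3.69 and 1.89.

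The genes nearest to Nedd4 are given as a description. Its TTP vs GFP value chose the group and enters the distance used, so nothing is read from how far other genes lay. The 5 genes with a mean of at least 50 that were nearest to Nedd4 in the plane of the 2 differences from GFP were Amz1 at a distance of 1.26, Plxna4 at 1.55, Prkcb at 1.86, Flt1 at 2.02 and Pcdh7 at 2.10 log2 units (3 groups). Amz1, Plxna4 and Flt1 shared the order of groups of Nedd4, while Prkcb and Pcdh7 were highest in TTP-AA. Amz1, a metalloprotease gene with an exon overlapping Gna12 on the other strand, was higher than in GFP by 2.46 in TTP and by 1.63 in TTP-AA. Next to Nedd4 in the size ranking of TTP vs GFP stood Arhgap4 at -2.95 and Lgals3bp at -2.82, which are both of opposite sign. Arhgap4 shares exon positions with other annotated genes.

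The family holds a further pair of ligases, Hecw1 and Hecw2, which are known mainly from neurons. Hecw1 had a mean of 2.97 and was not counted. Hecw2 had scaled fitted counts of 84.0, 85.8 and 91.5 in GFP, 43.5, 44.1 and 47.5 in TTP, and 96.2, 97.8 and 104.7 in TTP-AA. Its TTP level lay at -0.95 from GFP, and its TTP-AA level was 1.14 above TTP, past the fold limit, as were 3.26% of the 13027 genes. Hecw2 thus lay on the other side of GFP from Nedd4 in the TTP cells.

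The other HECT ligases, which carry the same catalytic domain without the WW domains, showed no gene past the fold limit in any comparison. All 18 of 18 passed the mean of 10, and their medians were 0.01 and -0.04 against GFP in TTP and TTP-AA, and -0.05 between the TTP forms. The largest single values were those of Hectd2, which in TTP-AA lay 0.69 above GFP and 0.91 above TTP, though a transcript antisense to it shares exon positions. Ube3a, the ligase lost in Angelman syndrome, lay at -0.37 in TTP-AA against GFP, and Ube3c at -0.32 against TTP. The 8 E2 enzymes of the Ube2d, Ube2e and Ube2l families that serve HECT ligases had medians of -0.07, 0.02 and 0.13, again with none past the limit and the largest value 0.52, for Ube2l3 in TTP-AA against TTP.

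Of 23 other adaptors and binding partners of these ligases, 21 passed the mean of 10. For TTP vs GFP 1 of the 21 passed the fold limit (1.37% of all genes did), for TTP-AA vs GFP none did (1.47%), and between the TTP forms 1 did (3.26%). In both cases this was N4bp3, first described as a Nedd4-binding protein, which differed in the same directions as Nedd4 between GFP, TTP and the mutant. Its scaled fitted counts were 65.2, 82.9 and 105 in GFP, 174, 219 and 281 in TTP, and 78.9, 99.9 and 127 in TTP-AA. N4bp3 lay 1.41 above GFP in TTP and 0.27 above GFP in TTP-AA, and the mutant lay at -1.14 from wild-type TTP. The arrestin-related adaptors varied in sign, with Arrdc3 at -0.81 and Arrdc4 at 0.08 for TTP vs GFP and -0.41 and 0.66 for TTP-AA vs GFP, where Txnip lay at -0.61. Ldlrad4, an inhibitor of TGF-β signaling that binds Nedd4-type ligases, lay 0.84 above its TTP level in TTP-AA. The medians of the list were -0.08, 0.10 and 0.16.

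Of 33 genes coding for described substrates of the family, 29 passed the mean of 10. In TTP-AA vs TTP, 24 of the 29 were higher in TTP-AA, with a median of 0.23. Over all genes the median was 0.00, and 50.3% were lower in TTP-AA. Other lists were also mostly higher there, with 7 of 8 macrophage markers, 6 of 8 E2 enzymes and 12 of 16 endosomal sorting partners. Of the other HECT ligases 7 of 18 were higher, and of the other adaptors and binding partners 13 of 21. The tilt is therefore not particular to the substrates. Of the 29, 1 passed the fold limit, compared with 3.26% of all genes. In TTP-AA vs GFP 21 of 29 were higher, with a median of 0.13, while 49.8% of all genes were lower. In TTP vs GFP 18 of 29 were lower, with a median of -0.08, as were 50.3% of all genes. The gene past the limit was Fgfr1, a receptor tyrosine kinase, with differences of 1.23 from GFP and 1.14 from TTP in TTP-AA. Traf4, a TNF receptor-associated factor, was higher by 0.64 in TTP than in GFP and was -0.86 in TTP-AA vs TTP. Klf2, a transcription factor targeted by Wwp1 and the Smurf ligases, was lower than in GFP by 0.73 in TTP and by 0.72 in TTP-AA. Smad1, a substrate of the Smurf ligases, lay 0.57 above GFP and 0.92 above TTP in TTP-AA. Klf4, named here after its values were seen, lay 0.69 and 0.78 above them. These are mRNA levels, which do not report the ubiquitination of the proteins.

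The 16 endosomal sorting partners, which receive ubiquitinated cargo, all passed the mean of 10 and none passed the fold limit. Their medians were -0.07, -0.05 and 0.06 for the 3 comparisons, and 15 of 16 had a lower level in TTP than GFP, as did 50.3% of all genes, with a lowest value of -0.29 for Gga1. The largest values in the other comparisons were -0.58 for the deubiquitinase Stambp in TTP-AA against GFP and -0.50 for Epn2 between the TTP forms.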

How the data were processed

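The authors trimmed 50 bp single-end reads of rRNA-depleted total RNA, aligned them with TopHat to GRCm38 with an Ensembl annotation, allowing a read more than 1 placement, and counted them per gene (HTSeq per the labels' processing notes). The authors fitted DESeq2 1.6.3 with library date and condition as terms. The table deposited as normalized counts holds signal values that are fitted means of that model: none of the 25504 rows had a value of 0, and after centring the log2 values had 4 nonzero singular values where 8 were free. The mean signal over all libraries was also deposited by the authors and is given as the authors' mean. Their fold changes, standard errors and p-values were not used.

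Fitted values were divided by the median ratio of each library to the geometric mean library (factors 0.612 to 2.83) with numpy 2.4.6 and pandas 2.3.3. The design called for limma with the replicate number as a block if scatter was present; as there was none, differences of group mean log2 values are given with no test. Repeated rows (10) were counted once. Counting intervals (95%) treat summed fitted counts as Poisson counts. Of the gene identifiers, 98.7% matched GENCODE M21. The differencing code was tested on simulated data.

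The 9 members and all gene lists were chosen with earlier results of these data known. All members were named. Of the lists, genes past the fold limit were named, and others only if they had 1 of the 2 largest differences of their list in a comparison, with Klf4 as an exception, as well as every gene within 500 kb of Nedd4 by counts, the 5 genes nearest to Nedd4 and the next 2 in the TTP vs GFP ranking by size.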

Additional observations from a re-analysis of the deposited data

How the results depend on the processing

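Other library scalings (total, upper quartile), pseudocounts of 1 and 10, removal of the chromosome median and removal of a GC and length trend gave 162 member differences. None changed sign and 162 stayed within 1 replicate-number SD of the value reported. That SD is not an error of a difference, so it serves only as a mark of size. The largest shift was 0.13, for Smurf2 in TTP-AA vs TTP with the chromosome median removed. It took the difference from -0.23 to -0.10, and the same removal took Smurf2 in TTP-AA vs GFP from -0.25 to -0.14. Nedd4 ranged from 3.64 to 3.72 for TTP vs GFP, 1.87 to 1.93 for TTP-AA vs GFP and -1.81 to -1.77 for TTP-AA vs TTP. With a limit of 0.5 on the log2 scale the genes past it numbered 680, 1118 and 1757 in the same order, and with a pseudocount of 10 the count for TTP-AA vs GFP was 124 in place of 191. With the union of exons as length, Nedd4 ranked 8th per kb in GFP and 8th in TTP-AA, and by the longest protein-coding transcript, added after seeing the data, 8th and 5th. No paired analysis was possible because fitted means leave no residual around group and replicate number. For the same reason, fits without a replicate and other tools were not run. The fewest summed fitted reads of a member in a group were 1267, for Nedd4l in TTP, which limits its precision most.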
